A study of Mus musculus with 15 samples.

Results

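The genes described here are Atf4 and 9 genes that act with or downstream of the factor it encodes in the integrated stress response, namely Atf5, Ddit3, Trib3, Chac1, Sesn2, Ddit4, Ppp1r15a, Gdf15 and Nupr1. They are 10 of the 57186 genes in the count table, and all 10 were among the 19839 genes with enough counts to be tested. They were taken by name and then compared over the 5 groups, with the HMSNP-treated group set directly against the MSNP-treated group. They were selected on their counts in these libraries, that is, on their differences from the nontreated controls and between HMSNP and MSNP, so these contrasts are given as a description of this set and not as independent evidence for it.

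RAW 264.7 cells, a mouse macrophage line, were incubated for 6 h with silica nanoparticles at nontoxic concentrations or were left nontreated, and their polyadenylated RNA was sequenced. The particles were nonporous with a nominal diameter of 100 nm (SNP100, 50 µg/mL) or 50 nm (SNP50, 25 µg/mL), mesoporous with a diameter of 100 nm (MSNP, 200 µg/mL), or hollow and mesoporous with a diameter of 100 nm (HMSNP, 200 µg/mL). Each of the 5 groups had 3 libraries, with 29369934 to 42617812 counts on genes per library. MSNP and HMSNP were given at the same dose by mass and for the same time. The nonporous particles were given at lower doses, so that porosity and dose cannot be told apart in their comparison with the porous ones. All groups share 1 cell line, and the labels do not say whether the 3 libraries of a group came from separate cultures, so the errors may be technical. The library labels also carry a different number for each group. What that number stands for is not given, and whatever it marks cannot be told apart from treatment.

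The integrated stress response begins when kinases that sense amino acid shortage, misfolded protein in the endoplasmic reticulum, heme shortage or double-stranded RNA phosphorylate the initiation factor eIF2 on its alpha subunit. General translation then slows, while the messages of Atf4, Atf5, Ddit3 and Ppp1r15a, which carry short upstream reading frames, are translated better. ATF4 enters the nucleus, pairs with C/EBP proteins and switches on genes for amino acid uptake and synthesis together with the effectors considered here, through a composite element known as CARE. Counts of mRNA measure neither the phosphorylation of eIF2 nor the amount of ATF4 protein.

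Levels are given as CPM, counts scaled to 1 common library size and corrected for composition, and differences as log2 fold changes from 1 edgeR model of all 15 libraries, with their standard error (SE). A gene was called at a Benjamini-Hochberg adjusted p under 0.05 over all genes tested. All 10 macrophage markers had a mean of at least 1 CPM in every group, and their summed level was 13396 to 14350 CPM in the MSNP-treated libraries against 15780 to 20475 CPM in the others. Most of each sum was Lyz2. With MSNP against the controls, 7 of the 10 were called lower and 1, Cd68, higher (11% and 11.8% of all genes tested). T cell, B cell, epithelial, fibroblast and endothelial markers summed to at most 0.574 CPM in any library. In bulk RNA, fewer cells of a kind and less RNA per cell cannot be told apart. In Control replicate 3, short transcripts were counted more and long ones less than in the other 14 libraries, with a median log2 deviation of 0.58 for the shortest 10% of genes and −0.76 for the longest 10% (elsewhere −0.18 to 0.26 and −0.18 to 0.23). Nupr1 and Ddit3 have short transcripts, of 829 and 979 bases, and Sesn2 has the longest of the 10, at 3486 bases, so values against the controls are also given without that library where it matters.

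The promoters of Ddit3, Trib3 and Chac1 are printed because these 3 genes differed most between the 2 porous particles among those with counts in every library. Each window runs from 250 bases before to 50 bases after the start of the canonical transcript on GRCm39, 5′ to 3′ on the strand of the gene. Capitals mark TGATGNAA, the core of the CARE, or the wider form TGNNGCAA, on either strand. The wider form was chosen after these windows had been read. The windows are chr10:127126310-127126609 on the plus strand, chr2:152185963-152186262 on the minus strand and chr2:119181439-119181738 on the plus strand.
Ddit3: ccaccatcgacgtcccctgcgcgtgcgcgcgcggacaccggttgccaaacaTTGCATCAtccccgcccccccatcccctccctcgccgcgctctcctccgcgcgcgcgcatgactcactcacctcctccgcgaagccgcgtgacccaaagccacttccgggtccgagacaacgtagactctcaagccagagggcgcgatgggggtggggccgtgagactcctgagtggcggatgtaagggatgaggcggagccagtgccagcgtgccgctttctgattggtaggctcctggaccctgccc
Trib3: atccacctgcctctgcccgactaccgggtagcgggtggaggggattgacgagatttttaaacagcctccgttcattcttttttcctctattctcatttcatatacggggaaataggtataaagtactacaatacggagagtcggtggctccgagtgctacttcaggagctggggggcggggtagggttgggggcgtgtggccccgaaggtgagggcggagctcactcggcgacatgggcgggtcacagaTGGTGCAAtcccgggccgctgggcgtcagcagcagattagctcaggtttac
Chac1: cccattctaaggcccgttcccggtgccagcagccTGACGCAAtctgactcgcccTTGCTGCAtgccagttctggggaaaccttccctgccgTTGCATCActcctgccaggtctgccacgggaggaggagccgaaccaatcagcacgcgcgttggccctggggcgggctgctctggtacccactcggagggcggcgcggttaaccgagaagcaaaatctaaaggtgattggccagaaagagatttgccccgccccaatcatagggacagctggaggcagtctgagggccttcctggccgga

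Ddit3 held the CARE core once, as TTGCATCA on the opposite strand, starting 199 bases before the transcription start. Chac1 held the same 8 letters 159 bases before its start, with 2 further wider matches, TGACGCAA at 216 and TTGCTGCA at 196 bases. Trib3 had no core match and held the wider form as TGGTGCAA, which begins 1 base before the start. The core was present in 2 of the 10 windows and in 337 of 13135 windows of tested protein-coding genes (2.57%), and it was present in 7 of the 30 windows of other ATF4 targets. The wider form was present in 5 of the 10 windows (Atf5, Ddit3, Trib3, Chac1 and Sesn2) against 10.5% of all windows. Among other ATF4 targets it was present in 7 of the 30 windows. Because it was chosen after the 3 printed windows had been read, its count in the 10 is a description and not a test. Ppp1r15a held a cAMP response element, TGACGTCA, 12 bases before its start, as did 3.16% of windows. The endoplasmic reticulum stress element through which ATF6 and XBP1 act was found in 0 of the 10 windows and in 4 of 12 windows of chaperone genes (0.107% of all windows). The wider form and the core share letters, so that 1 site can count under both. A match says only that these letters occur in the window.

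Ddit3 encodes CHOP, a transcription factor that promotes cell death when the response is prolonged. It lies on chromosome 10 from 127124268 to 127132163. Its level was 9.56, 9.28 and 10.3 CPM in the 3 nontreated controls, 14.6, 15.6 and 15.5 CPM with SNP100, and 17.2, 13.3 and 14.0 CPM with SNP50. With MSNP it was 53.2, 48.7 and 51.6 CPM, and with HMSNP 5.91, 5.60 and 6.42 CPM. The MSNP-treated libraries stood above every other library and the HMSNP-treated ones below every other, the latter below the controls as well. The nonporous groups overlapped with each other and lay between the controls and MSNP. Against the controls the log2 fold change was 2.39 (SE 0.096) for MSNP, −0.70 (SE 0.099) for HMSNP, 0.65 (SE 0.095) for SNP100 and 0.61 (SE 0.095) for SNP50. HMSNP against MSNP gave −3.10 (SE 0.10), which is 8.55-fold lower. When a trend with transcript length was removed, the values against the controls were −0.45 for HMSNP and 2.61 for MSNP. With Control replicate 3 also left out, they were 0.58 for SNP100 and 0.41 for SNP50.

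Ddit3 shares 3576 of its 5579 annotated exon bases with Mars1, a gene for methionyl-tRNA synthetase on the opposite strand. The libraries were directional, but the strand setting of the counting is not given in the sources used here. Mars1 had a mean of 137 CPM with HMSNP, 178 CPM with MSNP and 182 CPM in the controls. Its log2 fold change was −0.38 (SE 0.072) for HMSNP against MSNP and −0.03 (SE 0.071) for MSNP against the controls, beside −3.10 and 2.39 for Ddit3. With HMSNP against the controls Mars1 was called lower, at −0.41 (SE 0.072), beside −0.70 for Ddit3. Its part in the Ddit3 values was not tested. A second identifier with the symbol Ddit3 spans 105 exon bases and had 0 counts in the 15 libraries, against 9990 for the one used.

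Trib3, on chromosome 2 from 152179337 to 152191958, encodes a pseudokinase that binds AKT and also restrains ATF4 in a feedback loop. Its levels were 17.9, 21.5 and 20.8 CPM in the nontreated controls, 14.6, 14.6 and 14.8 CPM with SNP100 and 14.7, 14.5 and 13.3 CPM with SNP50. They were 53.7, 52.2 and 45.8 CPM with MSNP and 3.06, 3.39 and 2.77 CPM with HMSNP. Every HMSNP-treated library was below every other library, and every MSNP-treated one above. The difference between the 2 porous particles was −4.04 (SE 0.11) on the log2 scale, or 16.5-fold, of which 1.33 (SE 0.090) was the distance of MSNP above the controls and −2.71 (SE 0.10) that of HMSNP below them. Both nonporous groups lay under the controls, at −0.45 (SE 0.091) and −0.50 (SE 0.092), and overlapped with each other.

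Chac1, on chromosome 2 from 119180757 to 119184866, encodes an enzyme that degrades glutathione. It was counted at 7.28, 7.60 and 6.90 CPM in the controls, 5.72, 6.01 and 6.73 CPM with SNP100 and 5.57, 5.58 and 5.57 CPM with SNP50. The MSNP-treated libraries held 11.9, 11.3 and 11.0 CPM and the HMSNP-treated ones 0.735, 1.17 and 0.825 CPM. No group overlapped with the next in the order MSNP, Control, SNP100, SNP50, HMSNP. HMSNP was 12.5-fold below MSNP (log2 fold change −3.64, SE 0.13). Here the larger part of the distance was below the controls, with −2.99 (SE 0.14) for HMSNP against 0.65 (SE 0.11) for MSNP, whereas for Ddit3 it was above them.

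**Figure D1:**
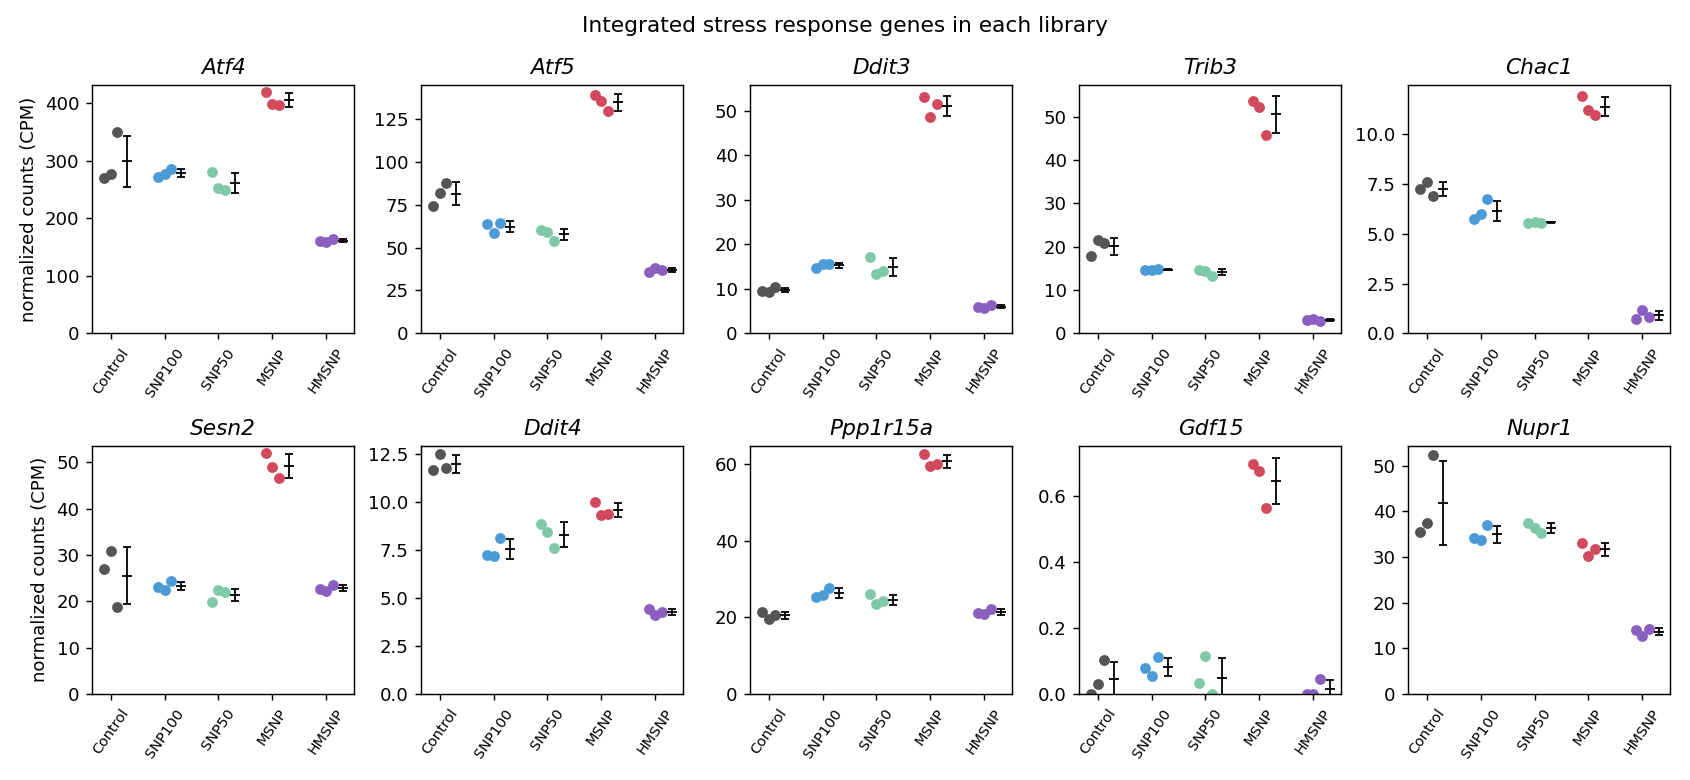
Level of each of the 10 genes in CPM (linear axis from 0) in the 15 libraries, with 1 point per library and, to its right, the group mean with its SD (n = 3). MSNP is the highest group by mean for 8 genes and HMSNP the lowest for 8, while Ddit4 and Nupr1 are highest in the nontreated controls.

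Atf4 and Atf5 encode the transcription factors at the head of this set. Atf4, on chromosome 15 from 80139372 to 80141745, was at 270, 276 and 350 CPM in the controls, where the highest value was in Control replicate 3. It was at 271, 277 and 285 CPM with SNP100, 281, 252 and 249 CPM with SNP50, 418, 399 and 396 CPM with MSNP and 160, 159 and 164 CPM with HMSNP. The nonporous groups overlapped with the controls, while MSNP lay above and HMSNP below all of these libraries. HMSNP against MSNP was −1.33 (SE 0.088), a 2.51-fold difference. Against the controls MSNP was at 0.44 (SE 0.087) and HMSNP at −0.89 (SE 0.088), and without Control replicate 3 these were 0.58 and −0.76.

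Atf5 is on chromosome 7 from 44461680 to 44466082, and its product also regulates the mitochondrial stress response. The controls held 74.4, 81.9 and 88.0 CPM, SNP100 63.7, 58.7 and 64.3 CPM and SNP50 60.3, 59.0 and 54.0 CPM. With MSNP the level was 139, 136 and 130 CPM, and with HMSNP 36.0, 37.9 and 37.0 CPM. The order was the same as for Chac1, except that the nonporous groups overlapped with each other. The log2 fold change between the porous particles was −1.87 (SE 0.076), or 3.65-fold. Over the 15 libraries Atf4 and Atf5 had the smallest root mean square (RMS) difference of centred log2 CPM of any pair among the 10 genes, 0.24. This measure is not scaled to the size of the changes, so genes that vary little come out close.

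Per 100 counts of Atf4 in the same library, Ddit3 had 12.6 ± 0.40 (SD, n = 3) counts with MSNP, 3.71 ± 0.19 with HMSNP and 3.29 ± 0.30 in the controls. Relative to Atf4, Ddit3 in the HMSNP-treated libraries overlapped with the controls. The corresponding values of Trib3 were 12.5 ± 0.83 with MSNP, 1.91 ± 0.22 with HMSNP and 6.79 ± 0.93 in the controls. For Chac1 they were 2.82 ± 0.040, 0.566 ± 0.15 and 2.47 ± 0.44. Trib3 and Chac1 stood lower relative to Atf4 in every HMSNP-treated library than in any other library. In contrast, Sesn2 and Ppp1r15a stood above the controls relative to Atf4 in both porous groups. Per 100 Atf4 counts, Sesn2 had 14.2 ± 0.14 with HMSNP, 12.2 ± 0.35 with MSNP and 8.84 ± 3.1 in the controls. The control values of Sesn2 were 9.97, 11.2 and, in Control replicate 3, 5.35. Ppp1r15a had 13.3 ± 0.24, 15.01 ± 0.10 and 6.97 ± 1.0. It was also above every control in the nonporous groups, at 9.43 ± 0.24 with SNP100 and 9.42 ± 0.25 with SNP50. For Sesn2 the nonporous groups overlapped with the controls. These ratios carry no length correction and compare libraries, not genes.

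**Figure D2:**
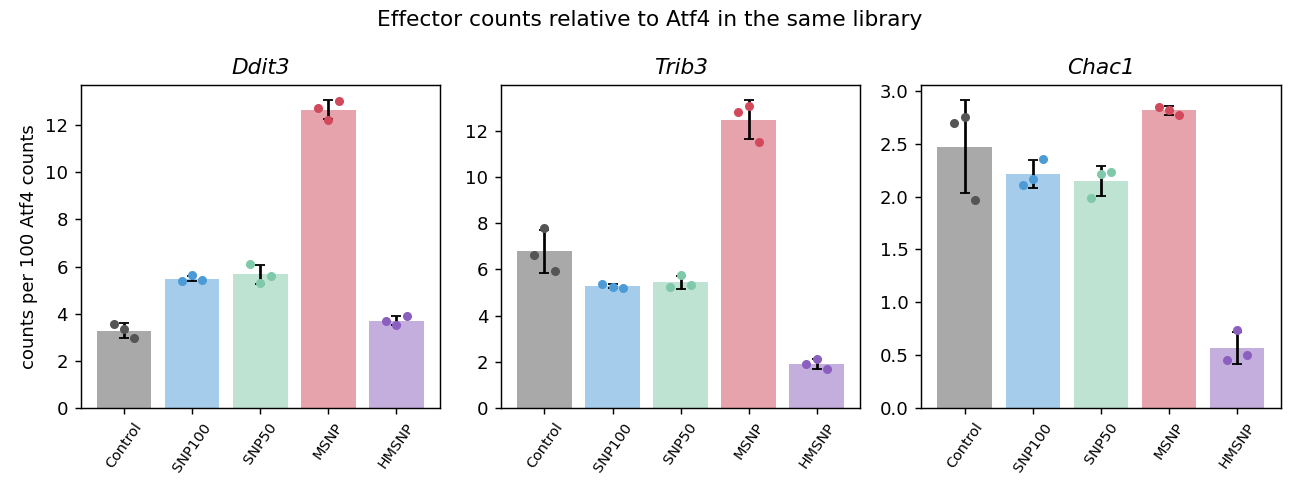
Counts of Ddit3, Trib3 and Chac1 per 100 Atf4 counts of the same library (linear axis from 0), with bars for the group mean, whiskers for the SD (n = 3) and 1 point per library. Trib3 and Chac1 fall lowest with HMSNP (1.91 and 0.566), whereas Ddit3 with HMSNP (3.71) is close to the controls (3.29).

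For Ppp1r15a and Sesn2 the HMSNP-treated libraries overlapped with the controls. Ppp1r15a, on chromosome 7 from 45172340 to 45175692, encodes GADD34, the inducible subunit that leads a phosphatase to eIF2 and ends the response. Its level was 21.5, 19.5 and 20.6 CPM in the controls, 62.6, 59.5 and 59.96 CPM with MSNP and 21.1, 20.7 and 22.2 CPM with HMSNP. The HMSNP-treated libraries overlapped with the controls, at a log2 fold change of 0.06 (95% confidence interval −0.08 to 0.19), while MSNP was at 1.56 (SE 0.069). SNP100, at 25.2, 25.7 and 27.7 CPM, and SNP50, at 26.0, 23.4 and 24.2 CPM, lay above both and overlapped with each other. HMSNP against MSNP was −1.51 (SE 0.069), or 2.84-fold.

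Sesn2, on chromosome 4 from 132219335 to 132237815, encodes a sestrin that restrains mTORC1 when leucine is scarce. The controls held 26.9, 30.9 and 18.7 CPM, the lowest in Control replicate 3. With SNP100 it was at 23.2, 22.5 and 24.3 CPM, with SNP50 at 19.9, 22.4 and 21.9 CPM, with MSNP at 51.9, 49.0 and 46.7 CPM and with HMSNP at 22.7, 22.3 and 23.4 CPM. Apart from MSNP, each group overlapped with the next in order. HMSNP was 2.16-fold below MSNP (log2 fold change −1.11, SE 0.13). Against the controls it was at −0.16 (SE 0.13), SNP100 at −0.13 (SE 0.13) and SNP50 at −0.25 (SE 0.13), none of them called. Without Control replicate 3 all 3 were called, at −0.34, −0.31 and −0.44, and the HMSNP-treated libraries lay below both remaining controls.

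Ddit4 and Nupr1 did not rise with MSNP. Ddit4, on chromosome 10 from 59785491 to 59788492, encodes REDD1, an inhibitor of mTORC1. It was highest in the controls, at 11.7, 12.5 and 11.8 CPM, followed by MSNP at 9.98, 9.34 and 9.40 CPM, SNP50 at 8.88, 8.42 and 7.58 CPM, SNP100 at 7.26, 7.21 and 8.14 CPM and HMSNP at 4.41, 4.14 and 4.26 CPM. All 12 treated libraries were below all 3 controls, and of the neighbours in this order only SNP50 and SNP100 overlapped. The log2 fold change against the controls was −0.32 (SE 0.083) for MSNP, −0.53 (SE 0.084) for SNP50, −0.67 (SE 0.084) for SNP100 and −1.49 (SE 0.087) for HMSNP. The MSNP value was not called when a trend with transcript length was removed, nor in the 6 libraries of that comparison alone, nor without MSNP replicate 2.

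Nupr1, on chromosome 7 from 126222414 to 126230033, encodes a small stress-induced chromatin protein. The controls held 35.5, 37.5 and 52.4 CPM, again with the highest value in Control replicate 3, and the SNP100 and SNP50 groups, at 33.7 to 37.1 and 35.3 to 37.4 CPM, overlapped with them. MSNP was at 33.1, 30.3 and 31.8 CPM and HMSNP at 14.0, 12.7 and 14.1 CPM, both below every control. HMSNP against the controls was −1.62 (SE 0.12) and MSNP −0.40 (SE 0.12), and without Control replicate 3 these were −1.42 and −0.19. The MSNP call was lost under the same settings as that of Ddit4 and also without MSNP replicate 3. The difference between the porous particles was −1.22 (SE 0.12), or 2.33-fold. Ddit4 and Nupr1 were the pair with the second smallest RMS difference, 0.26.

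Gdf15, on chromosome 8 from 71082038 to 71091537, encodes a secreted stress cytokine and was close to absent. Its summed counts over the 3 libraries of a group were 65 with MSNP, 9 with SNP100, 5 with SNP50, 5 in the controls and 2 with HMSNP. MSNP was the only group at 0.563 CPM or above in every library, and 2 of the 3 HMSNP-treated libraries had 0 counts. After scaling, the MSNP level was 37.1 times that with HMSNP (95% counting interval 9.87 to 313) and 13.6 times that in the controls (5.55 to 43.3). These intervals cover counting error only, and the fitted fold change of Gdf15 depends on the prior count. No difference of HMSNP, SNP50 or SNP100 from the controls was detectable at this depth, and these 3 groups were not compared with each other.

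Divided by the length of the canonical transcript, Atf4 was the most abundant of the 10 messages in every group, at 232 CPM per kilobase with MSNP, 172 in the controls and 92.4 with HMSNP. On the same scale Ddit3 went from 52.3 with MSNP to 6.10 with HMSNP, Trib3 from 24.2 to 1.47 and Chac1 from 6.86 to 0.547. In the controls Ddit3 and Trib3 stood at almost the same level per kilobase, 9.93 and 9.60. Ddit3 was ahead of Trib3 with MSNP, at 52.3 against 24.2, and with HMSNP, at 6.10 against 1.47.

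HMSNP against MSNP was the contrast at matched time and dose by mass, between particles that differ in the hollow core and also in density and surface composition. All 10 genes were called lower with HMSNP by edgeR's quasi-likelihood test, where 11% of all genes were called lower and 9.22% higher. Since the genes were selected on this difference, the count restates the selection. The median log2 fold change of the 10 was −1.69 against 0.0036 for all genes. The 10 calls did not depend on any of the 23 alternative settings.

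Set against the controls, the 10 genes split. Lying above every control with MSNP and below every control with HMSNP was seen for 5 of them (Atf4, Atf5, Ddit3, Trib3 and Chac1), as for 231 of all genes tested (1.16%). The 5 thus comprise both factors and the 3 effectors named first, but this membership depends on Control replicate 3. Sesn2 lay above every control with MSNP, and with HMSNP it lay below every control except that library. With MSNP 8 were called higher and 2 lower (background 11.8% and 11%), and with HMSNP 0 higher and 7 lower (2.46% and 2.7%). SNP100 had 2 called higher (Ddit3 and Ppp1r15a) and 3 lower (Atf5, Trib3 and Ddit4), with a background of 0.509% and 0.403%. SNP50 had 1 higher (Ddit3) and 3 lower (the same 3 as SNP100), with a background of 0.454% and 0.958%. All these comparisons share the control libraries. In the 6 libraries of a comparison alone, 0 of the 10 were called with SNP100 or SNP50, and Ddit3 was not called with HMSNP nor Atf4 with MSNP. These shares describe a set picked with the results known.

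**Figure D3:**
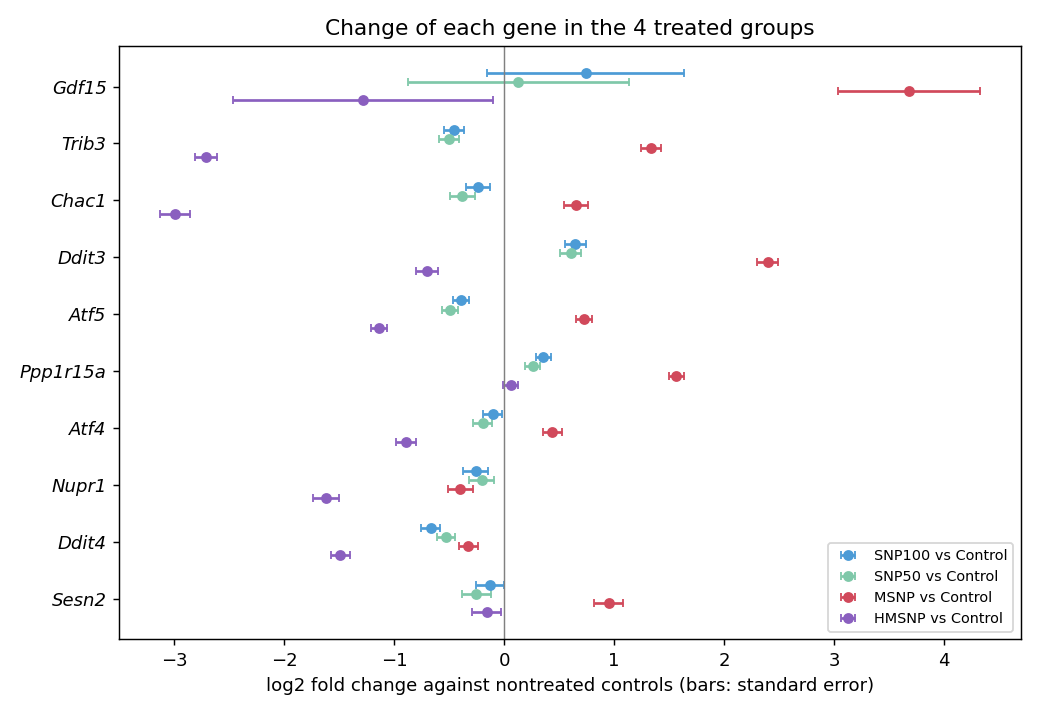
Log2 fold change of each gene against the nontreated controls in the 4 treated groups (points, with SE as bars), ordered by the difference between HMSNP and MSNP. MSNP lies to the right of 0 for 8 genes, and for Trib3, Chac1, Ddit3, Atf5 and Atf4 the HMSNP point lies clearly on the other side. The wide bars of Gdf15 come with its few counts.

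The rest of the pathway was read from lists that were also written with earlier results known. In HMSNP against MSNP, 25 of the 26 tested genes of the other ATF4 targets were called lower and 0 higher (background 11% and 9.22%), with a median log2 fold change of −1.003. The 25 span serine and one-carbon synthesis, amino acid transporters and tRNA synthetases. Slc7a11, the cystine transporter subunit, was not called (−0.76, adjusted p = 0.0615), and Vldlr, Adm2, Fgf21 and Rab39b had 0 counts in every library. The 4 largest were Slc1a4, a neutral amino acid transporter, at −2.97 (SE 0.15), Cth, which makes cysteine from cystathionine, at −1.82 (SE 0.12), Gpt2, the mitochondrial alanine aminotransferase, at −1.60 (SE 0.13), and Pck2, the mitochondrial PEP carboxykinase, at −1.60 (SE 0.071).

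Against the controls, 19 of the 26 were called lower and 0 higher with HMSNP (background 2.7% and 2.46%), and 12 higher and 0 lower with MSNP (11.8% and 11%). In the 6 libraries of each comparison alone these were 10 and 7. Slc1a4 followed the effectors in its fall with HMSNP. Its mean was 16.5 ± 4.1 CPM (SD, n = 3) in the controls, 21.3 ± 1.0 CPM with MSNP and 2.71 ± 0.16 CPM with HMSNP. The lowest MSNP-treated library, at 20.6 CPM, was only just above the highest control, at 20.3 CPM. The lowest control, at 12.2 CPM, was Control replicate 3. Pck2 did not stand above the controls with MSNP, at 76.7 ± 3.1 against 77.2 ± 6.0 CPM, but was at 25.4 ± 0.33 CPM with HMSNP. SNP50 had 5 called lower (background 0.958%), a count that went from 0 without SNP50 replicate 1 or 3 to 14 without Control replicate 3, and was 0 in the 6 libraries alone. SNP100 had 0 called by edgeR, with 8 of the 26 at an unadjusted p under 0.05, 3 called lower by DESeq2 and 9 by edgeR without Control replicate 3. With the length offset as well, and without that control, 11 were called lower with SNP100 and 14 with SNP50.

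Upstream of ATF4, calls between HMSNP and MSNP were made for 2 of 7 kinases and relays, 2 of 8 eIF2 and eIF2B subunits and 2 of 4 phosphatase genes, beside a background of 11% lower and 9.22% higher. Of the 7 kinases and relays, Eif2ak2, which encodes the double-stranded RNA sensor PKR, was higher with HMSNP than with MSNP (0.55, SE 0.14, adjusted p = 0.011) and Oma1, a mitochondrial protease that relays stress to the kinase HRI, was lower (−0.30, SE 0.073, adjusted p = 0.00715). Eif2ak1, Eif2ak3, Eif2ak4, Gcn1 and Dele1 were not called and had log2 fold changes from −0.08 to 0.19. Among the 8 subunits of eIF2 and of its exchange factor eIF2B, Eif2s2 (−0.59, SE 0.13) and Eif2b2 (−0.31, SE 0.090) were called lower. In the eIF2 phosphatase, the constitutive regulatory subunit Ppp1r15b (−0.29, adjusted p = 0.0442) and the catalytic subunit Ppp1cc (−0.18, adjusted p = 0.0364) passed narrowly, while Ppp1ca (0.02) and Ppp1cb (−0.06) did not. Ppp1r15b was called under 8, Ppp1cc under 10 and Eif2b2 under 19 of the 23 alternatives, and Eif2ak2 was not called without MSNP replicate 3.

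Of the 6 bZIP factors that can pair with ATF4 or share its sites, 5 were called lower with HMSNP than with MSNP. The remaining 1, Jdp2, was called higher (background 11% lower and 9.22% higher). The Jdp2 call was lost in some alternatives, such as the length offset and without MSNP replicate 3. The lower count was 4 without SNP100 replicate 2. Jdp2 lay below the controls in every treated group, at 81.1 ± 1.6 CPM in the controls, 38.7 ± 2.1 CPM with MSNP and 46.1 ± 2.8 CPM with HMSNP. Atf3, itself a stress-induced repressor, had a log2 fold change of −1.62 (SE 0.065). Unlike the effectors it stood above the controls in every treated group. Atf3 was at 31.2 ± 0.38 CPM in the controls, 174 ± 6.6 CPM with MSNP and 56.7 ± 1.8 CPM with HMSNP. With SNP100 it was at 46.3 ± 1.9 CPM and with SNP50 at 47.3 ± 2.9 CPM. Nfe2l1 (−0.70, SE 0.11), Nfe2l2 (−0.66, SE 0.051) and Cebpg (−0.45, SE 0.055) followed. Nfe2l2, which encodes NRF2, the regulator of antioxidant genes, was at 191 ± 3.6 CPM in the controls, 353 ± 7.4 CPM with MSNP and 224 ± 5.3 CPM with HMSNP.

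The 6 genes linked to CHOP did not move as a group with Ddit3. Car6, a carbonic anhydrase with an intracellular form that CHOP induces, was lower with HMSNP than with MSNP (−3.60, SE 0.35), at 1.41 ± 0.083 CPM with MSNP, 0.114 ± 0.063 CPM with HMSNP and 0.25 ± 0.12 CPM in the controls. Ero1a, an oxidase of the endoplasmic reticulum, was also lower (−0.47, SE 0.14), a call lost under 7 of the 23 alternatives. Tnfrsf10b, the TRAIL receptor DR5, and Bcl2l11, the death factor BIM, were called higher with HMSNP than with MSNP (0.70, SE 0.088, and 0.43, SE 0.080). Tnfrsf10b was at 8.81 ± 0.77 CPM with HMSNP, 5.41 ± 0.20 CPM with MSNP and 5.05 ± 0.095 CPM in the controls. Bcl2l11 was at 31.2 ± 0.32, 23.2 ± 0.30 and 29.2 ± 3.7 CPM. Its HMSNP-treated libraries overlapped with the controls, and its MSNP-treated ones lay below them. Bbc3 and Bcl2 were not called.

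The endoplasmic reticulum chaperones and their regulators, which answer to ATF6 and XBP1, had a median log2 fold change of −0.06 between HMSNP and MSNP. Dnajb9 (−0.60, SE 0.070) and Herpud1 (−0.52, SE 0.064) were called lower and 0 of the 12 higher (background 11% and 9.22%). The lower calls rose to 5 without Control replicate 3 and to 4 in the 6 libraries alone. Against the controls 9 were called higher with MSNP and 5 with HMSNP (background 11.8% and 2.46%), and 0 lower in either. The MSNP count was 4 in the 6 libraries alone, and the HMSNP count was 0 there, 3 without HMSNP replicate 1, 2 without HMSNP replicate 2 and 9 without Control replicate 3. Hspa5, the chaperone BiP, had similar log2 fold changes of 0.45 with MSNP and 0.42 with HMSNP, and −0.04 between them.

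**Figure D4:**
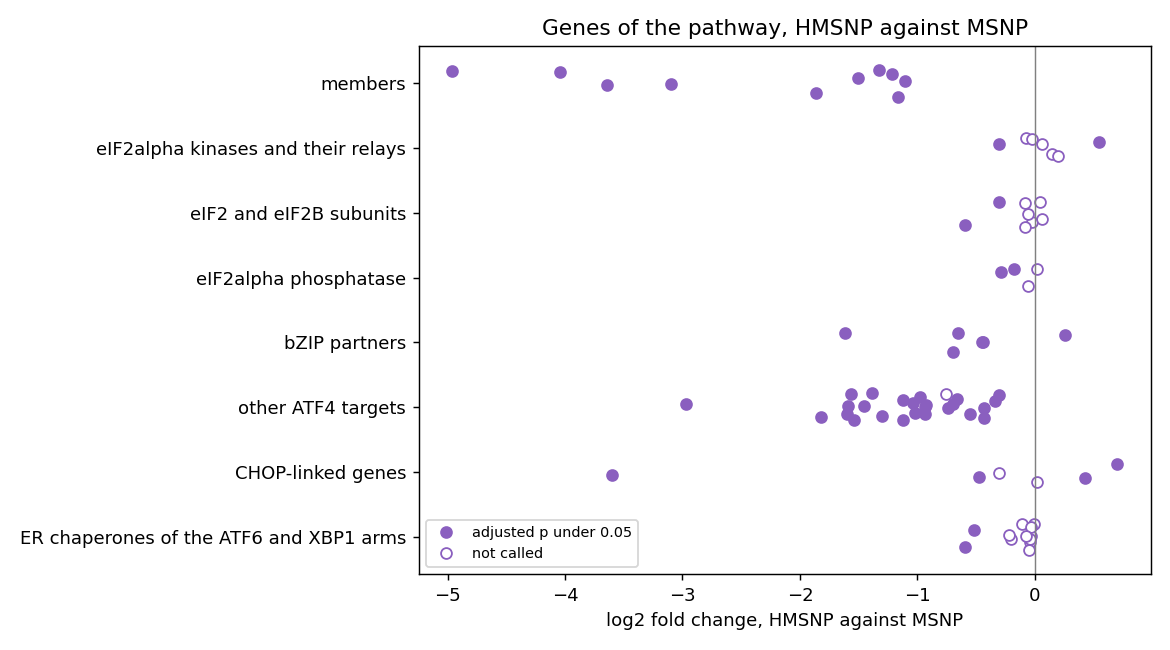
Log2 fold change of HMSNP against MSNP for the tested genes of each list (1 point per gene, spread vertically only to separate them), filled where the adjusted p was under 0.05. The row named members holds the 10 genes described here, all between −4.96 and −1.11. The other ATF4 targets lie left of 0 throughout, whereas kinases, eIF2 and eIF2B subunits and chaperones all lie between −0.60 and 0.55.

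The genes with profiles most like those of the 3 leading effectors were sought among 10650 genes outside the 10 with a mean log2 CPM above 1, by the RMS difference of centred log2 CPM over the 15 libraries. For Ddit3 they were Rilpl2 (0.19), 4933430I17Rik (0.24) and Cd200r4 (0.24). Rilpl2 was at 385 ± 11 CPM with MSNP, 49.1 ± 0.77 CPM with HMSNP and 76.5 ± 19 CPM in the controls, and Cd200r4, a receptor-like gene of myeloid cells, at 43.8 ± 1.5, 4.96 ± 0.39 and 5.66 ± 0.16 CPM. Outside the 10, Trib3 was most like Slc1a4 (0.41), Hal (0.41) and Cox6a2 (0.55), and Chac1 most like Slc1a4 (0.33), Rab15 (0.51) and Hal (0.57). Hal, the histidine ammonia-lyase gene, was at 40.4 ± 0.93 CPM with MSNP, 4.28 ± 0.38 CPM with HMSNP and 12.1 ± 0.83 CPM in the controls. Trib3 and Chac1 shared 2 of their 3 neighbours, and Ddit3 shared 0 with either. Trib3 and Chac1 were themselves closer to each other than Trib3 was to any of these, at an RMS difference of 0.34.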

How the data were processed

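RNA was sequenced from 15 libraries, 3 for each of 5 groups assigned from the sample labels. Times came from the labels and doses and diameters from the study's methods. The authors isolated poly(A) RNA, made directional libraries and mapped the reads to GRCm39. The submitters' processing notes name STAR 2.7.9a, cutadapt 1.16 and featureCounts 1.6.3, and the annotation release and the strand setting are not given in the sources used here. The deposited table holds raw counts per gene and library, without normalization, and replicates were kept apart. Symbols, positions and promoter windows were taken from GENCODE vM39 on GRCm39.

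Genes with at least 10 counts over the 15 libraries were tested with edgeR 4.0.16 in R 4.3.3, with TMM normalization, 1 quasi-likelihood model of all libraries without a replicate term, and Benjamini-Hochberg adjustment over 19839 genes at 0.05. The SE was the absolute log2 fold change over the square root of F. Log2 CPM used a prior count of 2. Steps were tested on simulated data.

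The 10 genes, the pathway lists and the rule for named genes were chosen with earlier results of these data known. Named were all 10 genes, the 4 largest called genes of each list in HMSNP against MSNP (every gene of a list of 4), and the 3 nearest profiles of Ddit3, Trib3 and Chac1 outside the 10. Genes named beside these, such as Slc7a11, Hspa5, Jdp2 and Mars1, were chosen after their values were seen. Alternatives were RLE normalization, filterByExpr, no filter, the replicate block, a length offset, DESeq2 1.42.0, only the 6 libraries of a comparison, each library left out and, added after the data were seen, the length offset without Control replicate 3.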

Additional observations from a re-analysis of the deposited data

How the results depend on the processing

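In HMSNP against MSNP the 10 genes stayed called lower under all 23 alternatives. The smaller counts moved. With only the 6 libraries of a comparison, 0 of the 10 were called higher and 0 lower with SNP100 (2 and 3 in the model of all libraries), 0 higher and 0 lower with SNP50 (1 and 3), and 0 lower with MSNP (2). The length offset gave 2 called higher with SNP50 and 0 lower with MSNP, and DESeq2 gave 2 higher with SNP50. The length offset without Control replicate 3, added after the data were seen, gave 2 higher and 7 lower with SNP50. With 1 library left out, the count with SNP100 ranged from 1 to 2 higher and 1 to 4 lower (4 without Control replicate 3), with SNP50 from 1 to 2 higher and 2 to 5 lower (5 without Control replicate 3), and with MSNP from 0 (without MSNP replicate 2) to 2 lower. The cause was not tested.

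Among the named genes, signs changed only for values that were not called in the model of all libraries. Without Control replicate 3, Atf4 with SNP100 was at 0.023 and Gdf15 with HMSNP at 0.18, or 0.19 with the length offset as well. Left-out libraries moved Atf4 with SNP100 between −0.15 and 0.023, Sesn2 with SNP100 between −0.31 and 0.033 and with HMSNP between −0.34 and 0.019, Gdf15 with SNP50 between −1.34 and 1.59 and with HMSNP between −3.81 and 0.18, and Ppp1ca between the porous particles between −0.0026 and 0.038.

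Over all genes, the calls were 101 higher and 80 lower with SNP100, 90 and 190 with SNP50, 489 and 535 with HMSNP, 2348 and 2179 with MSNP, and 1829 and 2181 for HMSNP against MSNP. The 6 libraries alone gave 0 and 0, 0 and 1, 17 and 60, 1281 and 976, and 3577 and 3565. DESeq2 gave 247 and 249, 249 and 431, and 921 and 1024 in the first 3 of these, and the length offset 268 and 269, 340 and 593, and 1036 and 997. Without Control replicate 3 as well, the offset gave 611 and 614, 1382 and 1686, 1134 and 1091, and 3632 and 3485 for HMSNP against MSNP. filterByExpr raised the lower calls with SNP100 to 137 and with SNP50 to 290, and without a filter the latter were 115. Left-out libraries moved the calls with SNP100 from 39 to 557 higher and 18 to 455 lower, with SNP50 from 31 to 1889 and 54 to 1824, and for HMSNP against MSNP from 1369 to 3039 and 1717 to 3605, each highest without Control replicate 3. With HMSNP they ranged from 212 to 2610 and 255 to 2330, and with MSNP from 1498 to 3308 lower, each highest without Control replicate 2.

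Deviations of same-numbered libraries were correlated at −0.019, 0.24 and 0.54 between HMSNP and MSNP and at −0.52 to 0.57 against the controls, so the numbers were not taken to pair the samples. The replicate block left the count of the 10 genes at 10 lower in HMSNP against MSNP, changed no other count of the 10, and gave 1739 and 2063 calls over all genes there and 115 lower with SNP50. Among the 10 genes, only Gdf15 had counts too low for a firm fold change.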
